A study of Mus musculus with 39 samples.

Results

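The 33 genes described here are markers of disease-associated and phagocytic microglia, the brain's resident macrophages. They were taken as a named list of gene symbols, were matched to Ensembl identifiers in the deposited tables, and were followed through all 39 libraries of the series. All 33 were found among the 52636 genes listed, and all 33 were among the 19246 genes with enough counts to be tested. Polyadenylated RNA of mouse brain was sequenced after treatment with antisense oligonucleotides (ASOs), synthetic strands that bind a chosen RNA and can have it cut. Tmem106b, which encodes a protein of the lysosomal membrane, is the ASO target named in the design text. The 34 treated libraries were 3 given ASO 1 (treatment code RTR114030), 5 given ASO 2 (RTR113622), 4 given ASO 3 (RTR113656), 5 given ASO 4 (RTR113792), and 17 with a code but no ASO number and no stated target, namely 4 given RTR113609, 5 given RTR113643, 3 given RTR113841 and 5 given RTR59155. The remaining 5 libraries were given saline. The labels state no genotype, strain, age, sex, dose, time or brain region and leave unsaid whether each library is a different animal, so that the p-values here reflect only the spread from sample to sample. The title sets TMEM106B reduction beside GRN haploinsufficiency, and the labels do not say whether the mice carried a Grn allele.

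Microglia that meet amyloid, myelin debris or dying cells lower part of their resting programme and raise genes for lipid handling, lysosomal digestion and phagocytosis. In this state the receptor Trem2 senses lipids and signals through the adaptor Tyrobp, and full expression of genes such as Itgax, Cst7 and Clec7a is known to depend on Trem2. Several genes of the list, among them Apoe, Fth1, Cd9, Cd63, Ctsd, Axl, Csf1 and Lpl, are also made by astrocytes, neurons or other brain cells. In RNA of whole tissue, fewer cells of a type and less RNA per cell cannot be told apart.

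The promoters of 4 members that recur below are shown because the members varied together between libraries and because these 4 hold the letters searched for. Each is the 250 bases before the RefSeq start on GRCm38.p6, printed 5′ to 3′ on the strand of the gene. The capitals mark matches to TGANTCA (the AP-1 motif) in Itgax, to TGANTCA and to GAGGAA (the core of the PU.1 motif) in Trem2 and Cd68, and to CACGTG (the E-box read by the TFEB and MITF family) in Ctsd, on either strand. TTCCTC is GAGGAA on the other strand. TGANTCA is a loose form of the AP-1 motif that takes any base at N. The match reads TGAATCA in Trem2 and TGAGTCA in Itgax and Cd68.
Itgax, chr7:128129300-128129549, plus strand: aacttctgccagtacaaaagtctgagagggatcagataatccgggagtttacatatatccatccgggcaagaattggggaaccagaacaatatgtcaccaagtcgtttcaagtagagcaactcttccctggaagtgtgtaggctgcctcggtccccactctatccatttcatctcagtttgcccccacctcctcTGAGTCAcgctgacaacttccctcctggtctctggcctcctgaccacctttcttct
Trem2, chr17:48346151-48346400, plus strand: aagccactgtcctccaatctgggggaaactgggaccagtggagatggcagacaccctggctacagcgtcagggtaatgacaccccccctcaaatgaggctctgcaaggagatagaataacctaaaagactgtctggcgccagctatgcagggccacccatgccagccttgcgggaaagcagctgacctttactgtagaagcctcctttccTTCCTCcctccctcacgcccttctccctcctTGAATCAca
Ctsd, chr7:142387828-142388077, minus strand: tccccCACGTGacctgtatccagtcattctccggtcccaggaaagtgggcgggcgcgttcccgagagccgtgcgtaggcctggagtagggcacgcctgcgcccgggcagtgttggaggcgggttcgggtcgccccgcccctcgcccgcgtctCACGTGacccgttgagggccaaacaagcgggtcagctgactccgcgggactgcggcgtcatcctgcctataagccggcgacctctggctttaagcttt
Cd68, chr11:69666171-69666420, minus strand: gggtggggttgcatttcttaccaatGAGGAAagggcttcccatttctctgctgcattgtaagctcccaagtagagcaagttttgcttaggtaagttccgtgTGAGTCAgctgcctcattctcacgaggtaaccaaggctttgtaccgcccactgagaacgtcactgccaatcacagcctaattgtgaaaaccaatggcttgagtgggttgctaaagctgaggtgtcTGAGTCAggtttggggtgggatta
The RefSeq table held 38 promoters of 29 members, and Tyrobp, Cd52, Slc15a3 and Lpl had no entry. GAGGAA was present in 13 of the 38 (34.2%), in the genes Apoe, Axl, Cd53, Cd63, Cd68, Clec7a, Fcgr3, Laptm5, Spp1 and Trem2, and in 23.3% of all 32851 promoters of that length. TGANTCA was present in 5 (13.2%), those of Cd68, Cd84, Cybb, Itgax and Trem2, and in 6.75% of all promoters. CACGTG was present in 1 (2.63%), with 2 copies in Ctsd, and in 6.02% of all promoters. No matches of different motifs overlapped in these promoters. These are counts of letters and say nothing of binding.

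Tmem106b was lower in every treated library than in every saline library, with 43.9 to 62.2 CPM in ASO 1 (the treatment with the lowest mean) and 106 to 120.0 CPM in ASO 4 (the highest), against 171 to 214 CPM in saline. CPM, the unit used throughout, is a gene's count scaled to the size of its library. Summed counts ran from 19.7 M to 44.2 M per library. Single libraries stood apart over the whole list. Saline replicate 2 had the highest saline value of 30 of the 33 members and ASO 2 replicate 2 had the highest ASO 2 value of all 33, while ASO 3 replicate 4 had the lowest ASO 3 value of 27. The mean of the 33 members was 4.53 log2 CPM in Saline replicate 2 against 3.87 to 4.07 in the other saline libraries. Pmch, a gene of the lateral hypothalamus, exceeded 5 CPM in 11 libraries (2 of ASO 1, 1 of ASO 2, 3 of ASO 3, 2 of ASO 4, 1 of RTR113643 and 2 of RTR59155) and in none of RTR113609, RTR113841 or saline. All 15 homeostatic microglia, 8 astrocyte and 10 oligodendrocyte markers listed for the brain had enough counts to be tested. Of 9 monocyte and neutrophil markers 3 had enough counts to be tested (Ccr2, S100a8 and S100a9), and the summed level of all 9 was 0.5 to 2.7 CPM in every treated library and 0.7 to 1.6 CPM in saline.

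Each treatment was compared with saline, gene by gene. The median of the list lay above saline in all 8 treatments, by a log2 fold change of 0.40 or more in 6 of them. The median log2 fold change of the members was 0.47 in ASO 1, 0.52 in ASO 3 and 0.41 in ASO 4. It was 0.40 in RTR113643, 0.41 in RTR113841 and 0.48 in RTR59155. It was 0.15 in RTR113609 and 0.06 in ASO 2. The median over all genes tested was 0.00 in each. Log2 fold changes above 0 were seen for 33 of 33 members in ASO 1, ASO 3 and RTR59155, 32 in ASO 4, RTR113643 and RTR113841, and 24 in RTR113609 and ASO 2. Members vary together, so these counts are not separate observations. By library, the mean of the 33 members overlapped saline in each of the 6 treatments with a median of 0.40 or more. Their lowest libraries had 4.13 (RTR113643) to 4.38 (ASO 3) log2 CPM, against 4.53 in the highest saline library. Ordered by their median over the 8 treatments, the members with the largest changes were Cst7, Itgax, Gpnmb, Clec7a, Ccl6, Acp5 and Spp1, and those with the smallest were Fth1, Csf1, Axl, Cd9, Fcgr3 and Cd63, as the map of all members by library shows. ASO 2 had the lowest of the 8 log2 fold changes in 22 members and RTR113609 in 9. ASO 1 had the highest in 12 members, ASO 3 in 7 and RTR113609 in 5.

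**Figure D1:**
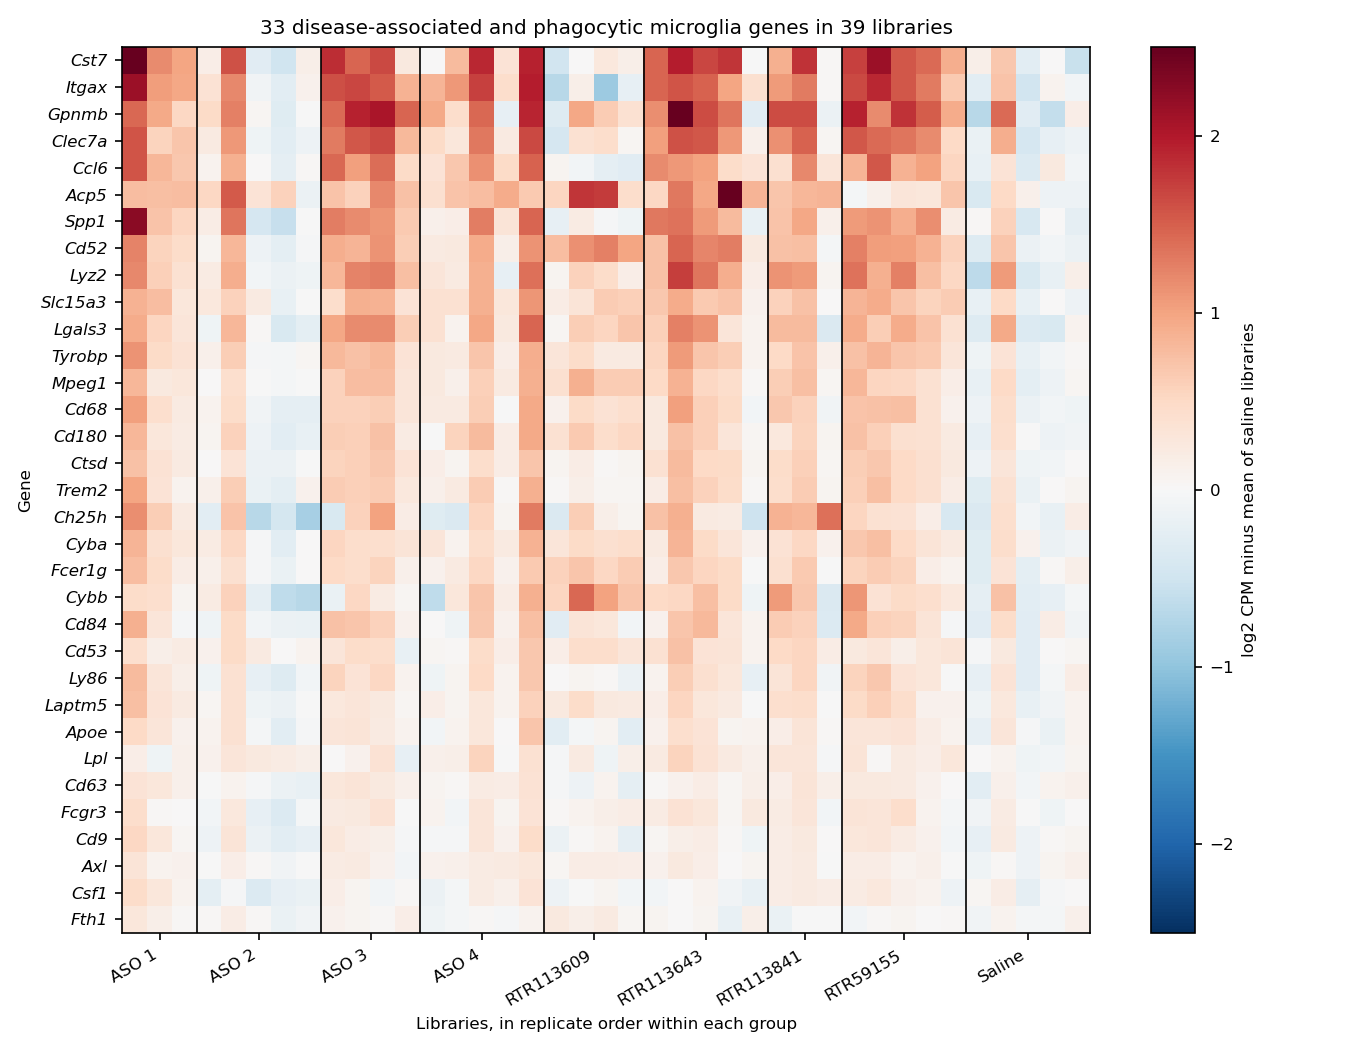
Level of each of the 33 genes (rows) in each of the 39 libraries (columns, grouped by treatment with saline at the right), as log2 CPM minus the mean of the saline libraries. Red is higher and blue is lower, with rows ordered by their median change over the 8 treatments. Red is widespread in the upper rows of ASO 1, ASO 3, RTR113643 and RTR59155. ASO 2 is pale outside its replicate 2, RTR113609 is red mainly at Acp5, Cd52, Cybb and Mpeg1, and Saline replicate 2 is the reddest saline column.

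With edgeR's quasi-likelihood test adjusted over all genes, 6 of 33 members were higher in RTR59155 (0.608% of all genes were called in either direction and 0.109% as higher), 5 in ASO 3 (1.91% and 0.707%), 5 in RTR113609 (6.72% and 2.36%) and 2 in RTR113643 (0.483% and 0.0779%). None passed in ASO 1 (0.229% of all genes called), ASO 2 (0.0727%), ASO 4 (0.0156%) or RTR113841 (0.0935%), and no member passed as lower in any comparison with saline. At an unadjusted p under 0.05 the numbers in these 4 groups were 24, 2, 22 and 17 of 33, beside 13.04%, 12.7%, 8.90% and 7.17% of all genes, and DESeq2 called 2 members in ASO 1 and 0 in the other 3, while limma voom called 0 in all 4. In all, 11 members passed in at least 1 of the 8 comparisons and 22 in none. The 8 comparisons share the same 5 saline libraries.

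The counts rested on single libraries. Without Saline replicate 2 they were 10 in RTR59155, 12 in ASO 3, 7 in RTR113609, 9 in RTR113643 and 1 in ASO 1. In RTR59155 the count was 0 without Saline replicate 1 or 3 or RTR59155 replicate 2, 1 without Saline replicate 4 or 5 or RTR59155 replicate 1 or 3, and 2 without RTR59155 replicate 4. In ASO 3 it was 0 without ASO 3 replicate 1, 1 without ASO 3 replicate 2, 2 without Saline replicate 1 or 3 and 3 without Saline replicate 4. In RTR113643 it was 0 without Saline replicate 1, 4 or 5 or RTR113643 replicate 4, 1 without Saline replicate 3 or RTR113643 replicate 2 or 3, and 8 without RTR113643 replicate 5. In RTR113609 it was 2 without RTR113609 replicate 2, and in ASO 1 it was 5 without ASO 1 replicate 3. The share of all genes called is not given for these fits, so a change particular to the members is not shown.

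Trem2 (ENSMUSG00000023992, chr17:48346401-48354147 on GRCm38, plus strand), the lipid-sensing receptor, had 46.1, 29.5 and 24.9 CPM in ASO 1, 36.3, 35.2, 36.3 and 28.0 CPM in ASO 3 and 35.5, 39.3, 33.2, 31.0 and 26.6 CPM in RTR59155, against 19.0, 30.6, 20.7, 23.6 and 24.4 CPM in saline. The highest of these 5 saline values overlapped each of the 3 groups. Trem2 did not pass in any treatment, with log2 fold changes of 0.50 in ASO 1, 0.10 in ASO 2, 0.52 in ASO 3, 0.41 in ASO 4, 0.05 in RTR113609, 0.40 in RTR113643, 0.38 in RTR113841 and 0.48 in RTR59155, and a smallest adjusted p of 0.111 (ASO 3). Trem2 had a lowest of 19.8 CPM (ASO 2 replicate 4), a median of 28.7 CPM and a highest of 46.1 CPM (ASO 1 replicate 1) over the 34 treated libraries, and 16 of them exceeded every saline library. Tyrobp (ENSMUSG00000030579, chr7:30413760-30417585, plus strand), the adaptor through which Trem2 signals, rose in ASO 3 to 44.8, 42.9, 44.8 and 32.6 CPM and in RTR59155 to 42.3, 46.0, 41.5, 40.2 and 31.6 CPM, against 23.6, 32.6, 22.5, 24.3 and 26.3 CPM in saline. Only Saline replicate 2 reached the lower end of either group. The log2 fold changes of Tyrobp were 0.67 in ASO 3 (SE 0.17, adjusted p = 0.0270) and 0.64 in RTR59155 (SE 0.16, adjusted p = 0.0475). The ASO 3 call on Tyrobp was lost without ASO 3 replicate 1 or 2 or Saline replicate 1, 3 or 4 (adjusted p up to 0.102), and the RTR59155 call was kept only without Saline replicate 2 or RTR59155 replicate 5 (adjusted p up to 0.186 otherwise). Tyrobp had a lowest of 24.8 CPM (ASO 2 replicate 4), a median of 36.0 CPM and a highest of 56.2 CPM (ASO 1 replicate 1) over the 34 treated libraries, and 20 of them exceeded every saline library.

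Itgax (ENSMUSG00000030789, chr7:128129547-128150657, plus strand), the integrin chain CD11c that pairs with Itgb2 into a complement receptor, had the smallest adjusted p of all members in the test over all groups given further on. It had 16.3, 7.57 and 7.17 CPM in ASO 1, 4.70, 8.54, 3.46, 3.04 and 3.97 in ASO 2, 11.3, 11.7, 10.7 and 6.72 in ASO 3 and 6.64, 7.79, 12.1, 4.99 and 14.4 in ASO 4. In the coded treatments Itgax had 2.25, 4.05, 1.92 and 3.17 CPM in RTR113609, 10.2, 11.0, 10.3, 7.34 and 4.84 in RTR113643, 7.68, 9.13 and 3.73 in RTR113841 and 11.6, 13.6, 10.8, 9.07 and 5.79 in RTR59155, against 3.04, 6.01, 2.61, 3.91 and 3.51 CPM in saline. All ASO 3 and all ASO 1 values lay above saline, RTR59155 overlapped saline through its lowest library alone, and 3 of the 4 RTR113609 values lay below the saline median of 3.51 CPM. Itgax rose 2.64-fold in ASO 3 (log2 fold change 1.40, SE 0.32, adjusted p = 0.0129) and 2.66-fold in RTR59155 (log2 fold change 1.41, SE 0.31, adjusted p = 0.0131). Itgax lost its ASO 3 call without ASO 3 replicate 1 or 2 (adjusted p up to 0.0605) and its RTR59155 call without Saline replicate 1 or 3 or RTR59155 replicate 2 (up to 0.0712). In ASO 1 the change was of the same size but did not pass (log2 fold change 1.44, SE 0.34, adjusted p = 0.0602), and its 3 values ran from 7.17 to 16.3 CPM. The value for ASO 4 was 1.30, adjusted p = 0.175, and that for RTR113609 was -0.43, adjusted p = 0.587.

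**Figure D2:**
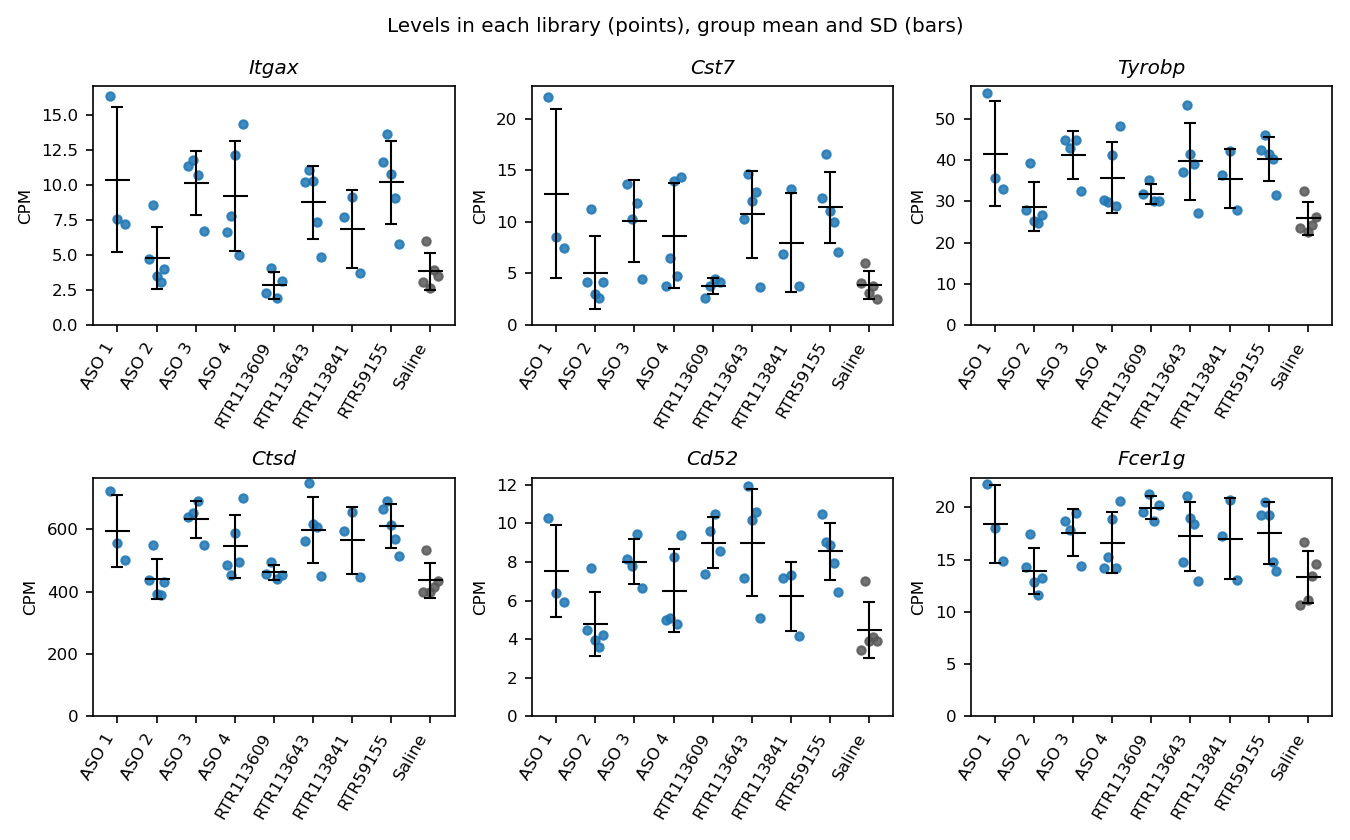
CPM of Itgax, Cst7, Tyrobp, Ctsd, Cd52 and Fcer1g in every library (points), with the mean (dash) and SD (bars) of each group, treatments left of saline. Itgax and Cst7 are near the saline level in RTR113609 and in 4 of 5 ASO 2 libraries, while Cd52 and Fcer1g are high in RTR113609, where Fcer1g averaged 19.9 CPM against 13.3 CPM in saline.

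Clec7a (ENSMUSG00000079293, chr6:129461591-129472779, minus strand, annotated as a polymorphic pseudogene), which encodes the glucan receptor dectin-1, rose in ASO 3 to 12.8, 15.4, 16.3 and 9.08 CPM, against 4.64, 9.72, 3.88, 4.50 and 4.76 CPM in saline. The lowest ASO 3 value of Clec7a lay under Saline replicate 2 and above the other 4 saline values (log2 fold change 1.28, SE 0.32, adjusted p = 0.0286). The call on Clec7a was kept only without Saline replicate 2 or ASO 3 replicate 4 (adjusted p up to 0.0909 otherwise). Over the 34 treated libraries Clec7a had a lowest of 3.89 CPM (RTR113609 replicate 1), a median of 9.88 CPM and a highest of 16.5 CPM (ASO 4 replicate 5), and 17 of them exceeded the highest saline library. Fcer1g (ENSMUSG00000058715, chr1:171229572-171234365, minus strand), the common gamma chain through which Fc receptors signal, had 19.6, 21.3, 18.7 and 20.3 CPM in RTR113609 against 10.7, 16.7, 11.1, 13.4 and 14.6 CPM in saline. Every RTR113609 value of Fcer1g lay above every saline value (log2 fold change 0.59, SE 0.15, adjusted p = 0.0110), and the call was kept without each library in turn. In the other treatments the log2 fold changes of Fcer1g ran from 0.06 (ASO 2) to 0.47 (ASO 1), and none passed. Fcer1g had a lowest of 11.6 CPM (ASO 2 replicate 4), a median of 17.9 CPM and a highest of 22.3 CPM (ASO 1 replicate 1) over the 34 treated libraries, and 20 of them exceeded every saline library.

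Of the other receptors and surface proteins, Fcgr3, Cd180, Ly86, Axl, Cd84, Cd9 and Cd53 did not pass against saline. Fcgr3, a low-affinity receptor for IgG whose reads can be shared with related Fc receptor genes, had log2 fold changes from -0.08 (ASO 2) to 0.23 (RTR113643). Cd180 and Ly86, which encode the Toll-like receptor RP105 and its partner MD-1, ran from 0.02 (ASO 2) to 0.54 (ASO 4) and from -0.07 (ASO 2) to 0.42 (ASO 1). Cd180 had a lowest of 4.58 CPM (ASO 2 replicate 4), a median of 7.27 CPM and a highest of 10.7 CPM (ASO 4 replicate 5) over the treated libraries and 4.81 to 7.40 CPM in saline. Its smallest adjusted p was 0.0927 (RTR113609), and it had 7.25, 8.73, 7.53 and 7.99 CPM in RTR113609. Axl, a receptor for bridging proteins on dying cells, lay between 0.02 (ASO 2) and 0.19 (ASO 4), and Cd84, a receptor of the SLAM family, between -0.02 (ASO 2) and 0.52 (ASO 3). The tetraspanins Cd9 and Cd53 reached 0.29 (ASO 1) and 0.41 (RTR113841).

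Cd52 (ENSMUSG00000000682, chr4:134082448-134095082, minus strand), a short glycopeptide anchored on the surface of leukocytes, passed in 3 treatments, more than any other member. It had 7.36, 9.58, 10.5 and 8.58 CPM in RTR113609, 7.18, 11.9, 10.2, 10.6 and 5.12 CPM in RTR113643 and 10.5, 9.01, 8.86, 7.93 and 6.47 CPM in RTR59155, against 3.43, 7.005, 3.88, 4.09 and 3.88 CPM in saline. No RTR113609 value of Cd52 overlapped saline, and the other two groups overlapped it at Saline replicate 2 alone. Cd52 was 2.02-fold higher in RTR113609 (log2 fold change 1.01, SE 0.24, adjusted p = 0.00486), 2.01-fold in RTR113643 (log2 fold change 1.01, SE 0.23, adjusted p = 0.0273) and 1.91-fold in RTR59155 (log2 fold change 0.94, SE 0.23, adjusted p = 0.0389). The RTR113609 call was kept without each library in turn. The RTR113643 call was kept only without Saline replicate 2 or RTR113643 replicate 1 or 5 (adjusted p up to 0.158 otherwise), and the RTR59155 call only without Saline replicate 2 or RTR59155 replicate 5 (up to 0.181). In ASO 3 Cd52 had a log2 fold change of 0.84, adjusted p = 0.0550. Cd52 had a lowest of 3.61 CPM (ASO 2 replicate 4), a median of 7.52 CPM and a highest of 11.9 CPM (RTR113643 replicate 2) over the 34 treated libraries, and 21 of them exceeded every saline library.

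Among the secreted proteins and ligands, the chemokine gene Ccl6 (ENSMUSG00000018927, chr11:83587882-83593087, minus strand) rose in 2 treatments. Ccl6 had 9.005, 6.71, 8.74 and 4.62 CPM in ASO 3 and 5.97, 9.78, 6.09, 6.66 and 4.80 CPM in RTR59155, against 2.90, 4.20, 2.58, 3.91 and 3.13 CPM in saline. All values of both groups lay above the highest saline value. The change was 2.16-fold in ASO 3 (log2 fold change 1.11, SE 0.25, adjusted p = 0.0118) and 1.99-fold in RTR59155 (log2 fold change 0.99, SE 0.24, adjusted p = 0.0389). It was lost in ASO 3 without ASO 3 replicate 1 (adjusted p = 0.0742), and in RTR59155 it was kept only without Saline replicate 2 or RTR59155 replicate 5 (up to 0.233 otherwise). In RTR113609 Ccl6 had 3.45, 3.14, 2.79 and 2.67 CPM, within the saline range (-0.15, adjusted p = 0.843). Ccl6 had a lowest of 2.67 CPM (RTR113609 replicate 4), a median of 5.28 CPM and a highest of 9.95 CPM (ASO 1 replicate 1) over the 34 treated libraries, and 23 of them exceeded every saline library.

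Spp1, the gene of osteopontin, did not pass. It had 134, 46.1 and 40.5 CPM in ASO 1 and 67.6, 63.7, 60.02 and 44.3 CPM in ASO 3, against 28.7, 41.8, 21.3, 28.3 and 23.9 CPM in saline, and over the treated libraries a lowest of 18.9 CPM (ASO 2 replicate 4), a median of 46.1 CPM and a highest of 134 CPM (ASO 1 replicate 1). Its fitted log2 fold changes were 1.35 in ASO 1 and 1.03 in ASO 3 (adjusted p = 0.0996 and 0.101), and -0.07 in RTR113609. The spread of Spp1 within ASO 1 was wide, since 1 of its 3 values was 134 CPM. Lgals3, the gene of the sugar-binding galectin-3, had 7.17, 8.31, 8.31 and 5.61 CPM in ASO 3 against 2.93, 7.10, 2.86, 2.79 and 3.88 CPM in saline (log2 fold change 0.90, SE 0.28, adjusted p = 0.0800), and the single value of 7.10 CPM in Saline replicate 2 lay inside the ASO 3 range. Lgals3 had a lowest of 2.79 CPM (ASO 2 replicate 4), a median of 5.62 CPM and a highest of 10.1 CPM (ASO 4 replicate 5) over the 34 treated libraries, and 7 of them exceeded every saline library.

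Apoe (ENSMUSG00000002985, chr7:19696109-19699188, minus strand), the main lipid carrier of the brain and a gene that astrocytes also express strongly, differed little. It had 2617, 2294 and 2002 CPM in ASO 1, 2296, 2318, 2155 and 1970.4 CPM in ASO 3 and 1548, 1795, 1945 and 1549 CPM in RTR113609, against 1607, 2296, 1815, 1650.4 and 1957 CPM in saline. Each of the 3 treatment ranges overlapped saline, while every RTR113609 value lay below every ASO 1 and ASO 3 value. Apoe had a lowest of 1537 CPM (ASO 2 replicate 4), a median of 1997 CPM and a highest of 2976 CPM (ASO 4 replicate 5) over the 34 treated libraries. The log2 fold changes of Apoe ran from -0.13 (RTR113609) to 0.31 (ASO 1), with a smallest adjusted p of 0.301 (ASO 1). Lpl, lipoprotein lipase, lay between 0.06 (RTR113609) and 0.30 (RTR113643). Csf1, a ligand of the microglial growth factor receptor Csf1r, had changes between -0.20 (ASO 2) and 0.28 (ASO 1).

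Among the lysosomal members, Ctsd (ENSMUSG00000007891, chr7:142375911-142388038, minus strand), the aspartyl protease cathepsin D, rose in ASO 3 and RTR59155. It had 638, 652, 689 and 549 CPM in ASO 3 and 666, 691, 613, 570.0 and 514 CPM in RTR59155, against 398, 532, 400.3, 415 and 434 CPM in saline. Every ASO 3 value lay above saline, and RTR59155 overlapped Saline replicate 2 through its lowest library. Ctsd rose by a log2 fold change of 0.54 in ASO 3 (SE 0.13, adjusted p = 0.0167) and 0.49 in RTR59155 (SE 0.12, adjusted p = 0.0445). In ASO 3 Ctsd no longer passed without ASO 3 replicate 1 or 2 or Saline replicate 1 or 3 (adjusted p up to 0.0626), and the RTR59155 call was kept only without Saline replicate 2 or RTR59155 replicate 5 (up to 0.200 otherwise). Ctsd had a lowest of 389 CPM (ASO 2 replicate 4), a median of 552 CPM and a highest of 747 CPM (RTR113643 replicate 2) over the 34 treated libraries, and 19 of them exceeded every saline library. RTR113643, the group of the highest of these, did not pass as a whole (log2 fold change 0.45, SE 0.12, adjusted p = 0.0793).

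Cst7 (ENSMUSG00000068129, chr2:150570415-150578944, plus strand), cystatin F, an inhibitor of lysosomal cysteine proteases, had the largest median change of the list and no call. It had 22.1, 8.52 and 7.46 CPM in ASO 1, 13.6, 10.3, 11.8 and 4.44 CPM in ASO 3, 10.3, 14.6, 12.02, 12.9 and 3.69 CPM in RTR113643 and 12.3, 16.6, 11.0, 9.99 and 7.06 CPM in RTR59155, against 4.11, 5.98, 3.09, 3.75 and 2.51 CPM in saline. All ASO 1 and RTR59155 values of Cst7 lay above saline, while 1 library each of ASO 3 and RTR113643 lay inside the saline range. The fitted log2 fold changes were 1.702 in ASO 1 (SE 0.45, adjusted p = 0.0996) and 1.55 in RTR59155 (SE 0.41, adjusted p = 0.0757). Cst7 had a lowest of 2.62 CPM (ASO 2 replicate 4), a median of 7.99 CPM and a highest of 22.1 CPM (ASO 1 replicate 1) over the 34 treated libraries, and 21 of them exceeded every saline library. Gpnmb, a glycoprotein found in lysosomes, had 38.7, 55.2, 59.8 and 40.2 CPM in ASO 3 against 8.95, 38.7, 11.99, 9.55 and 16.3 CPM in saline (log2 fold change 1.501, SE 0.42, adjusted p = 0.0532). Only Saline replicate 2 of the saline libraries reached the lowest ASO 3 value of Gpnmb. Gpnmb had a lowest of 11.7 CPM (RTR113609 replicate 1), a median of 32.8 CPM and a highest of 89.1 CPM (RTR113643 replicate 2) over the 34 treated libraries, and 13 of them exceeded every saline library.

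Slc15a3 (ENSMUSG00000024737, chr19:10839727-10859362, plus strand), a transporter of histidine and small peptides out of lysosomes, rose in RTR59155 to 6.33, 6.65, 5.65, 5.14 and 5.42 CPM, against 3.04, 4.89, 3.02, 3.50 and 3.16 CPM in saline. The groups did not overlap (log2 fold change 0.73, SE 0.17, adjusted p = 0.0337). The call was kept only without Saline replicate 2 or RTR59155 replicate 4 or 5 (adjusted p up to 0.145 otherwise). In ASO 3 the log2 fold change of Slc15a3 was 0.63, adjusted p = 0.0597. Slc15a3 had a lowest of 3.04 CPM (ASO 2 replicate 4), a median of 5.25 CPM and a highest of 7.51 CPM (ASO 4 replicate 5) over the 34 treated libraries, and 20 of them exceeded every saline library.

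Acp5 (ENSMUSG00000001348, chr9:22126727-22135711, minus strand), tartrate-resistant acid phosphatase, was the member with the fewest counts, 19 to 80 per library in RTR113643 and 9 to 17 in saline. It had 0.526, 1.33, 1.30 and 0.493 CPM in RTR113609 and 0.523, 0.955, 0.728, 2.42 and 0.671 CPM in RTR113643, against 0.253, 0.513, 0.382, 0.310 and 0.313 CPM in saline. Both groups were uneven: 2 of the RTR113609 libraries lay close to the highest saline value, and RTR113643 replicate 4, at 2.42 CPM, stood above the other 4 libraries of its group. All RTR113643 values lay above saline, the lowest narrowly. Acp5 rose in RTR113609 (log2 fold change 1.37, SE 0.37, adjusted p = 0.0163) and in RTR113643 (log2 fold change 1.57, SE 0.35, adjusted p = 0.0225). The RTR113609 call was lost without RTR113609 replicate 2 or 3 (adjusted p up to 0.103) and the RTR113643 call without Saline replicate 1, 4 or 5 or RTR113643 replicate 4 (up to 0.122). Acp5 had a lowest of 0.305 CPM (ASO 2 replicate 5), a median of 0.604 CPM and a highest of 2.42 CPM (RTR113643 replicate 4) over the 34 treated libraries, and 26 of them exceeded every saline library.

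Mpeg1 (ENSMUSG00000046805, chr19:12460779-12465283, plus strand), perforin-2, which makes pores in engulfed bacteria, had 91.2, 128, 107 and 107 CPM in RTR113609 and 103, 118, 119 and 85.2 CPM in ASO 3, against 61.0, 97.6, 58.9, 63.9 and 71.5 CPM in saline. Saline replicate 2 lay inside both ranges. Mpeg1 rose in RTR113609 (log2 fold change 0.62, SE 0.17, adjusted p = 0.0155) and missed the threshold in ASO 3 (log2 fold change 0.59, SE 0.17, adjusted p = 0.0521), although the fitted changes were alike in size. The RTR113609 call was lost without RTR113609 replicate 2 (adjusted p = 0.0870). Mpeg1 had a lowest of 67.0 CPM (ASO 2 replicate 4), a median of 96.0 CPM and a highest of 128 CPM (ASO 4 replicate 5) over the 34 treated libraries, and 17 of them exceeded every saline library.

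The other lysosomal and phagosomal members did not pass. Cd63, a tetraspanin of late endosomes, had 41.8, 42.5, 40.3 and 37.6 CPM in ASO 3 against 28.6, 37.3, 32.5, 36.3 and 37.4 CPM in saline (log2 fold change 0.24, SE 0.07, adjusted p = 0.0800). Every ASO 3 value of Cd63 lay above every saline value, the lowest of them narrowly. Cd63 had a lowest of 29.3 CPM (RTR113609 replicate 4), a median of 37.5 CPM and a highest of 43.9 CPM (ASO 4 replicate 5) over the 34 treated libraries, and 18 of them exceeded every saline library. Cd68, a heavily glycosylated lysosomal membrane protein, had log2 fold changes from 0.00 (ASO 2) to 0.57 (ASO 1), and Laptm5, which sorts proteins to lysosomes, from 0.03 (ASO 2) to 0.45 (ASO 1). Lyz2, lysozyme, whose reads can be shared with the near-identical Lyz1, had a lowest of 31.2 CPM (ASO 4 replicate 4), a median of 60 CPM and a highest of 119 CPM (RTR113643 replicate 2) in the treated libraries and 22.8 to 74.9 CPM in saline. Its log2 fold changes reached 0.94 (RTR113643), with a smallest adjusted p of 0.107 (ASO 3). Ch25h, which makes 25-hydroxycholesterol, ran from -0.25 (ASO 2) to 1.06 (RTR113841) at levels of 1.93 to 2.88 CPM in RTR113841 and 0.816 to 1.45 CPM in saline. Fth1, the heavy chain of the iron store ferritin, had the smallest median change of the list and ran from -0.06 (RTR113841) to 0.16 (RTR113609).

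Cybb (ENSMUSG00000015340, chrX:9435252-9487771, minus strand) and Cyba encode the large and small chains of the membrane core of the phagocyte NADPH oxidase, which makes superoxide. Cybb had 3.65, 6.80, 5.05 and 4.08 CPM in RTR113609, against 2.14, 4.20, 2.07, 2.14 and 2.41 CPM in saline. The RTR113609 range of Cybb began above 4 of the saline values and below Saline replicate 2. Cybb rose in RTR113609 (log2 fold change 0.92, SE 0.27, adjusted p = 0.0272), and the call was lost without RTR113609 replicate 2 or Saline replicate 1, 3, 4 or 5 (adjusted p up to 0.169). Cybb had a lowest of 1.53 CPM (ASO 2 replicate 5), a median of 3.40 CPM and a highest of 6.80 CPM (RTR113609 replicate 2) over the 34 treated libraries, and 6 of them exceeded every saline library. Cyba had 11.0, 12.4, 11.7 and 12.2 CPM in RTR113609 against 7.23, 12.05, 9.64, 8.002 and 8.36 CPM in saline and did not pass (0.38, adjusted p = 0.161). Of 5 listed partners of the oxidase, among them the small GTPase Rac2 and the proton channel Hvcn1, 1 passed, the cytosolic subunit Ncf4 in RTR113609 (0.62, adjusted p = 0.0367).

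**Figure D3:**
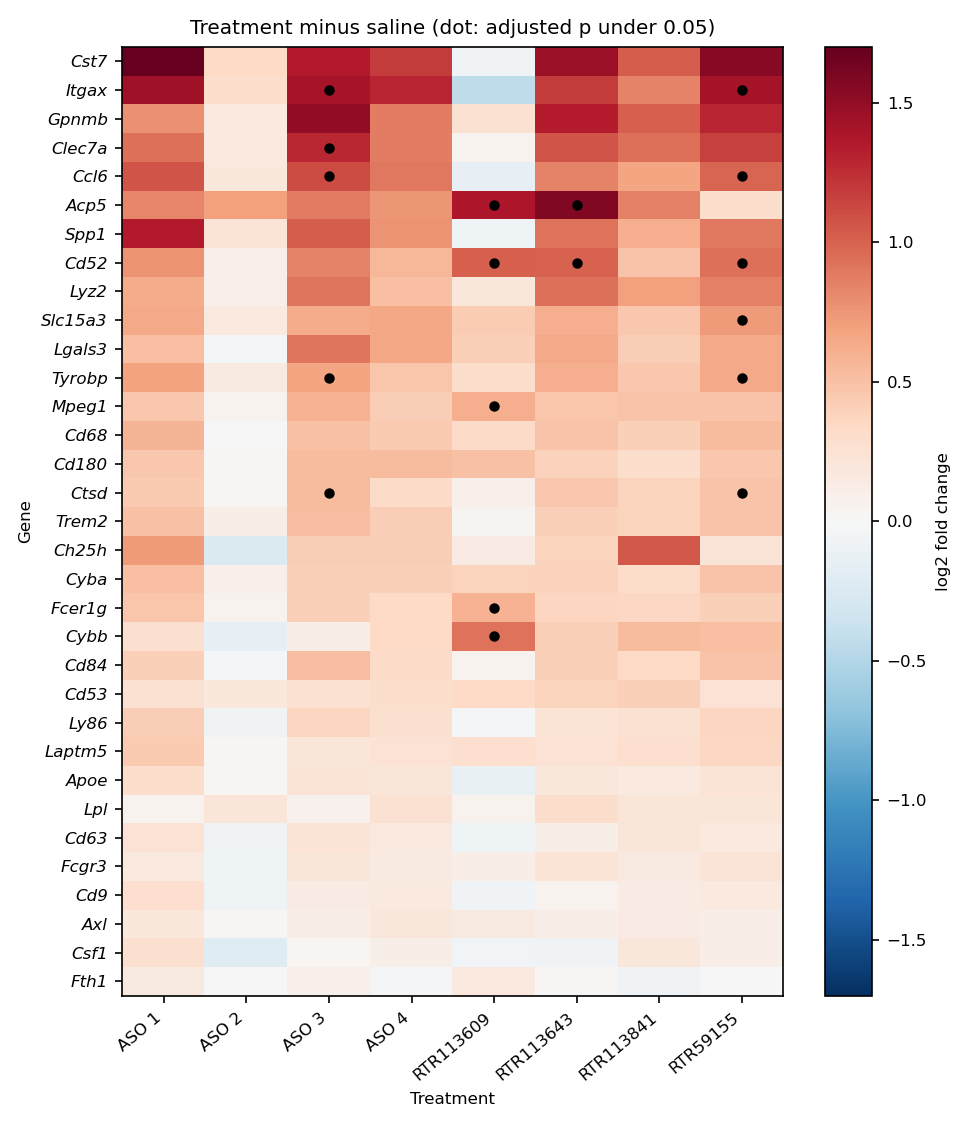
Log2 fold change of each member (rows) in each treatment against saline (columns), with a dot where the adjusted p was under 0.05. The 18 dots fall on 11 genes, and RTR113609 has its dots on Acp5, Cd52, Mpeg1, Fcer1g and Cybb, while ASO 3 has its dots on Itgax, Clec7a, Ccl6, Tyrobp and Ctsd.

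Levels per length placed the members far apart in saline brain. In the deposited RPKM values, Fth1 had 1458 ± 103 RPKM, Apoe 885 ± 137 RPKM and Ctsd 179 ± 23.7 RPKM in saline (SD, n = 5). RPKM scales a count to gene width and library size, so that genes can be set side by side. Tyrobp had 39.97 ± 6.41 RPKM and Trem2 18.1 ± 3.49 RPKM in saline. Itgax had 0.768 ± 0.270 RPKM, Cybb 0.476 ± 0.169 RPKM and Acp5 0.181 ± 0.0519 RPKM, all in saline, where Acp5 was the least abundant member. In ASO 3, Itgax had 2.06 ± 0.471 RPKM (SD, n = 4).

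Itgax, Ccl6, Cst7, Spp1 and Clec7a lay near saline in RTR113609, with log2 fold changes of -0.43, -0.15, -0.06, -0.07 and 0.06. This contrast was chosen after the values were seen, so the comparison of RTR113609 with the mean of the other 7 treatments is a description of it and not independent support. In that comparison 7 of 33 members were lower in RTR113609 and 1 was higher, where 12.2% of all genes were called (7.05% lower and 5.15% higher). The log2 difference was -1.56, adjusted p = 0.000306 for Itgax, -0.97, adjusted p = 0.00244 for Ccl6, -1.29, adjusted p = 0.0205 for Cst7, -0.90, adjusted p = 0.0361 for Spp1, -0.85, adjusted p = 0.0387 for Clec7a, -0.32, adjusted p = 0.0254 for Apoe and -0.22, adjusted p = 0.0106 for Cd63. It was 0.63, adjusted p = 0.0322 for Cybb. Ctsd (-0.29, adjusted p = 0.0584) and Trem2 (-0.35, adjusted p = 0.114) did not pass.

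Pan-microglia markers moved in RTR113609 as well. Of 14 pan-microglia genes (such as Csf1r and Itgam), 5 were higher in RTR113609, namely Ctss (0.71), Aif1 (0.55), C1qa (0.71), C1qb and C1qc, with none lower, and their summed level was 835 to 937 CPM in RTR113609 against 573 to 775 CPM in saline. The same list had 1 call in ASO 3 (C1qb), 1 in RTR113643 (C1qb) and 3 in RTR59155 (C1qa, C1qb and C1qc), all higher, and none in ASO 1, ASO 2, ASO 4 or RTR113841. Its median log2 fold change was 0.28 in RTR113609, 0.31 in ASO 1, 0.29 in ASO 3, 0.28 in RTR59155 and 0.03 in ASO 2. With the mean level of these 14 genes added to the fit, 10 members were lower in RTR113609 than in saline and 1 was higher (6.47% of all genes called). Itgax had a log2 fold change of -1.18, adjusted p = 2.2e-06, Cst7 -0.99, adjusted p = 0.0161, Spp1 -0.85, adjusted p = 0.00164, Ccl6 -0.68, adjusted p = 0.0133 and Clec7a -0.67, adjusted p = 0.00234 in that fit. The other 5 were Ly86 (-0.42), Apoe (-0.39), Trem2 (-0.37), Cd9 (-0.31) and Ctsd (-0.23), and Cd52 was the one higher (0.49, adjusted p = 0.00886). Clec7a, Trem2 and Ctsd lay slightly above 0 without the covariate and below 0 with it.

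In the same fit 4 of the 5 ASO 3 calls were kept (1.27% of all genes called), for Itgax (0.66, adjusted p = 0.0116), Clec7a (0.53, adjusted p = 0.0427), Tyrobp (0.26, adjusted p = 0.0416) and Ctsd (0.22, adjusted p = 0.0101), at less than the log2 fold changes without the covariate. Itgax was the 1 call kept in RTR59155 (0.64, adjusted p = 0.0193; 0.322% of all genes called), and 0 members passed in RTR113643 (0.421% of all genes called). In RTR113643 11 members had an unadjusted p under 0.05, and the share of all genes at that threshold is not given for this fit. How far the number of microglia moves with the members was not tested by this fit, since the covariate is itself RNA of the same libraries.

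The 4 numbered ASOs were compared with each other in 6 pairs, with p-values adjusted over all genes in each pair. ASO 2 stood below ASO 1 and ASO 3. Between ASO 1 and ASO 2, 10 of 33 members were higher in ASO 1 and none lower, where 10.8% of all genes were called and 4.26% as higher. Between ASO 2 and ASO 3, 7 members were lower in ASO 2 and none higher, where 5.74% of all genes were called and 2.52% as lower. Csf1 was the only member to pass between ASO 2 and ASO 4, lower in ASO 2 (1.85% of all genes called, 0.779% as lower). The median log2 difference of the members in that pair was -0.34, and 1 of 33 lay above 0. At an unadjusted p under 0.05 there were 20 of 33, beside 18.9% of all genes. No member passed between ASO 1 and ASO 3 (1.68% of all genes), ASO 1 and ASO 4 (0.442%) or ASO 3 and ASO 4 (1.21%). In these pairs 1, 1 and 0 members had an unadjusted p under 0.05, beside 14.7%, 8.86% and 14.5% of all genes. DESeq2 and limma voom also called 0 in each.

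Csf1 (ENSMUSG00000014599, chr3:107741048-107760469, minus strand) had 44.9, 39.8 and 34.6 CPM in ASO 1 against 27.5, 32.2, 25.8, 28.3 and 29.1 CPM in ASO 2. All ASO 1 values of Csf1 lay above all ASO 2 values (log2 difference 0.48, adjusted p = 0.00159), and the call was kept without each library in turn. ASO 2 minus ASO 4 gave -0.31, adjusted p = 0.0387 for Csf1, whose ASO 2 values overlapped the 29.7, 31.7, 38.0, 35.7 and 41.3 CPM of ASO 4. Ctsd, Cd63, Ccl6 and Itgax passed in both larger comparisons. The log2 difference of Ctsd was 0.43 for ASO 1 minus ASO 2 and -0.52 for ASO 2 minus ASO 3. For Cd63 these were 0.31 and -0.30, for Ccl6 0.89 and -0.93, and for Itgax 1.14 and -1.10. The 2 comparisons share the ASO 2 libraries. Other lists moved in the same pairs. Of the 10 striatum genes, 9 were lower in ASO 1 than in ASO 2 (median log2 difference -0.57) and all 10 were higher in ASO 2 than in ASO 3 (0.55). Of the 12 hypothalamus genes, 1 was higher in ASO 1 than in ASO 2 (median 1.35) and 7 were lower in ASO 2 than in ASO 3 (-1.95). Of the 10 reactive astrocyte genes, 1 was higher in ASO 1 than in ASO 2 (median 0.45) and 4 were lower in ASO 2 than in ASO 3 (-0.49). The members' differences with the regional levels in the fit are given further on.

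ASO 1 was further above ASO 2 in Cst7 (1.36, adjusted p = 0.0418), Spp1 (1.12, adjusted p = 0.0362), Tyrobp (0.54, adjusted p = 0.0481), Laptm5 (0.41, adjusted p = 0.0380) and Cd9 (0.36, adjusted p = 0.0366). ASO 2 was further below ASO 3 in Clec7a (-1.12, adjusted p = 0.0315), Lgals3 (-0.92, adjusted p = 0.0426) and Mpeg1 (-0.53, adjusted p = 0.0479). Clec7a had 6.07, 11.1, 4.84, 4.30 and 4.75 CPM in ASO 2 against 12.8, 15.4, 16.3 and 9.08 CPM in ASO 3, and ASO 2 replicate 2 alone reached the ASO 3 range. Without that library the 6 pairs held 48 calls in place of 18. They held 11 without ASO 1 replicate 1 or 2, 10 without ASO 3 replicate 1, 7 without ASO 2 replicate 1, 6 without ASO 2 replicate 5 and 4 without ASO 2 replicate 3 or 4. Calls over all genes in these fits are not given beside the members' calls.

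Asked once per gene whether any treatment differed from saline, the F test over the 8 treatment terms called 14 of 33 members, where 19% of all genes were called. The 14 were Itgax (adjusted p = 0.000128), Ccl6 (0.000684), Ctsd (0.00251), Csf1, Cd63, Cd52, Cst7, Clec7a, Tyrobp, Acp5, Slc15a3, Spp1, Mpeg1 and Gpnmb. Csf1, Cd63, Cst7, Spp1 and Gpnmb passed here without passing against saline in any single treatment. Fcer1g (0.0513) and Cybb (0.0721) were called in RTR113609 and did not pass the F test. The count was 22 without Saline replicate 2 and 29 without ASO 2 replicate 2, and the share of all genes called in these 2 fits is not given here.

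Other lists of microglial genes were read beside the members. The homeostatic genes that resting microglia express (15 genes, such as P2ry12 and Cx3cr1) had median log2 fold changes of 0.04 to 0.12 over the 8 treatments, and 3 passed, all higher in RTR113609: Siglech (0.39, adjusted p = 4.11e-06), Tmem119 (0.29, adjusted p = 0.00132) and P2ry13 (0.25, adjusted p = 0.00631). None of the 15 passed as lower in any treatment. Of 17 partners of Trem2 and Fc receptor signalling, 5 were higher in RTR113609 and none passed elsewhere. Among them were the high-affinity IgG receptor Fcgr1 (0.86, adjusted p = 3.74e-05) and the IgG receptor Fcgr4 (1.63, adjusted p = 4.78e-05). These stand beside the rise of Fcer1g, the chain shared by Fcgr1, Fcgr3 and Fcgr4, in the same treatment.

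Markers of other cells that could carry part of these transcripts were read in the same fit. Of 9 border macrophage genes (macrophages of the meninges and vessels), F13a1 (-1.52, adjusted p = 2.78e-07) and Mrc1 were lower and Ms4a7 higher in RTR113609, Cd163 (-0.95, adjusted p = 0.0105) and Mrc1 (-0.62, adjusted p = 0.0115) were lower in ASO 3, and F13a1 was lower in RTR59155. The summed level of the 9 was 24.4 to 31.2 CPM in ASO 3 and 26.1 to 29.2 CPM in RTR113609, against 29.99 to 36.2 CPM in saline. Of 10 reactive astrocyte genes, Cd44 (0.82, adjusted p = 0.00214) and Gfap were higher in ASO 3, and Cxcl10, an interferon-induced chemokine, was higher in RTR113609 (2.28, adjusted p = 1.31e-06), where Cp (-0.31) was lower. Among 8 astrocyte genes, Slc4a4 (-0.40) and Gjb6 (-0.34) were lower in RTR113609. Among 10 oligodendrocyte genes, Mal (-0.59) and Cldn11 (-0.49) were lower and Trf (0.54) higher in ASO 3, and 5 were lower and 1 higher in RTR113609. In RTR59155 Mal (-0.53) was lower and Trf (0.36) higher, in RTR113643 Mal (-0.35) was lower, and in ASO 1 Mag (0.32) and Trf (0.38) were higher. Among 8 endothelial genes, Ly6c1 alone passed, higher in RTR113609 (0.27, adjusted p = 0.0390). No cell division gene (7 of 8 tested) passed in any treatment with edgeR's test, with at most 1 per treatment at an unadjusted p under 0.05, the nearest being Mki67 in RTR113609 (0.55, adjusted p = 0.0598). The part of these cells in the members' differences was not tested.

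**Figure D4:**
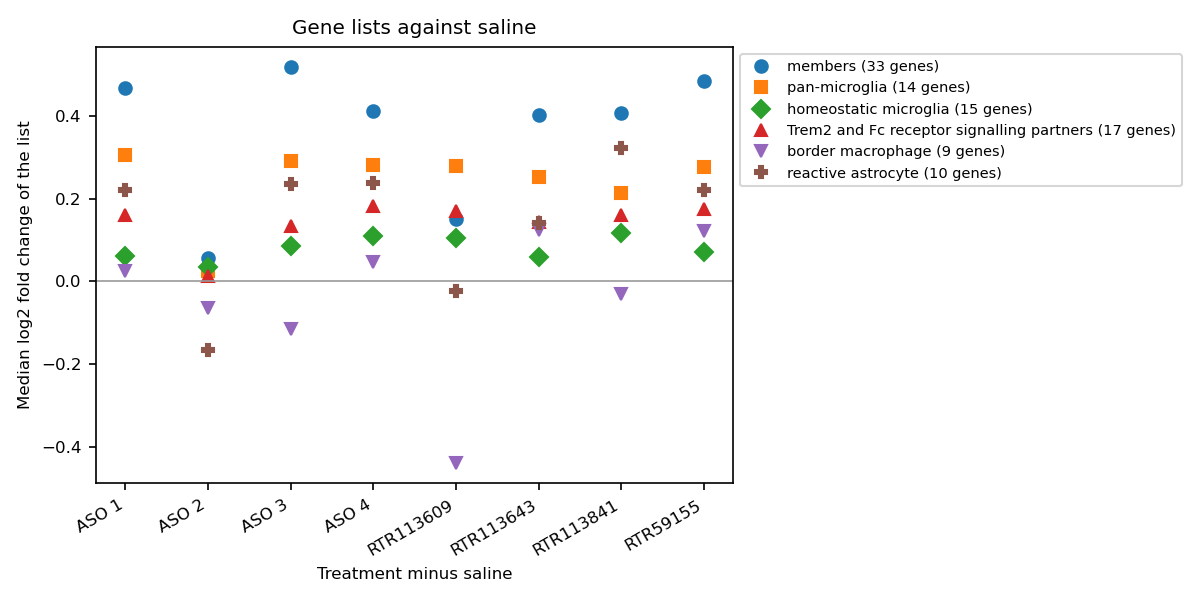
Median log2 fold change against saline (vertical axis) of the 33 members and 5 other gene lists in each treatment (horizontal axis). The members lie highest in 7 of the 8 treatments including ASO 2, where all 6 medians are near 0 or below, and in RTR113609 they lie at 0.15, below the pan-microglia genes at 0.28.

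Red blood cell and hypothalamus genes were also higher in ASO 3. All 5 haemoglobin and red cell genes tested (of 6 listed) were higher in ASO 3, with a median log2 fold change of 3.25, and their summed level was 12.3 to 82.9 CPM in ASO 3 against 3.3 to 8.3 CPM in saline. Of 12 hypothalamus genes 5 were higher in ASO 3, led by Ghrh (1.94, adjusted p = 0.00482), Hcrt and Pomc, and their sum was 137 to 304 CPM in ASO 3 against 115 to 154 CPM in saline. Of 10 striatum genes, Ppp1r1b was lower in ASO 3 (-0.45), and the list had a median of -0.43 in ASO 1 and -0.44 in ASO 3 but 0.14 in ASO 2 and 0.20 in RTR113609. With the mean striatum and hypothalamus levels added to the fit, 1 member passed in ASO 3, Itgax (1.29, adjusted p = 0.0441; 0.608% of all genes called). Without the 11 libraries above 5 CPM of Pmch, which left 1 ASO 3 library assumed to vary like the other groups, 1 passed in ASO 3, Ccl6 (1.38, adjusted p = 0.0185; 0.137% of all genes called). The median of the 33 members in ASO 3 was 0.47 with the regional levels and 0.62 without the Pmch libraries, against 0.52 with neither change. At an unadjusted p under 0.05 there were 19 members with the regional levels. With neither change there were 22, beside 15.2% of all genes. With the red cell level added 0 passed in ASO 3 with edgeR's test (0.499% of all genes called), and 13 had an unadjusted p under 0.05. The share of all genes at an unadjusted p under 0.05 is not given for the fits with added levels.

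In RTR59155, Itgax was the 1 call kept with the regional levels added (1.20, adjusted p = 0.0226; 0.613% of all genes called) and without the Pmch libraries (1.30, adjusted p = 0.0411; 0.314%). In RTR113643, 4 members passed with the regional levels (0.857% of all genes called), Cd52, Acp5, Itgax and Tyrobp, and 4 without the Pmch libraries (0.455%), Cd52, Acp5, Tyrobp and Ctsd. RTR113609 held no library above 5 CPM of Pmch, and its 5 calls were kept in both fits. The regional levels added Fth1, Laptm5, Axl, Cyba and Cd180 to them, for 10 in all (7.14% of all genes called), and leaving out the Pmch libraries added Cd180 (6.47%). In the fit with regional levels the RTR113609 changes were 1.12, adjusted p = 0.000718 for Cd52 and 0.67, adjusted p = 0.00105 for Fcer1g. None of the 18 calls between the numbered ASOs was kept with the regional levels. Calls over all genes fell as well, to 0.0779% in ASO 1 minus ASO 2, from 10.8%. They fell to 0.353% in ASO 2 minus ASO 3, from 5.74%, and to 0.0260% in ASO 2 minus ASO 4, from 1.85%. The loss is therefore not particular to the members. Without the Pmch libraries, which left 1 ASO 3 library, the log2 difference of Ccl6 in ASO 2 minus ASO 3 was -1.43. The median of the members for ASO 2 minus ASO 3 was -0.33 with the regional levels, against -0.46 with neither change. It was -0.72 without the Pmch libraries, a value that rests on the 1 ASO 3 library left. At an unadjusted p under 0.05 there were 12 members with the regional levels. With neither change there were 24, beside 20.6% of all genes. For ASO 1 minus ASO 2 the median was 0.16 with the regional levels against 0.43 with neither change. There 1 and 25 members had an unadjusted p under 0.05, beside 26.3% of all genes with neither change. With the regional levels the share of all genes at an unadjusted p under 0.05 is not given for either pair. Without the Pmch libraries, which left 1 ASO 1 library, the median for ASO 1 minus ASO 2 was 0.33.

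Within groups, 7 members were higher in libraries with less Tmem106b. The slope is the change in a member's log2 level for each unit of Tmem106b log2 CPM, with the 9 groups as terms, so that only libraries of the same group are compared. It was below 0 for 32 of 33 members, with a median of -0.51 against 0.00 over all genes, and the 7 that passed were all negative, where 5.36% of all genes were called and 1.57% as negative. They were Cyba (slope -0.61, SE 0.15, adjusted p = 0.0163), Cd68 (slope -0.74, SE 0.19, adjusted p = 0.0195), Itgax (slope -1.20, SE 0.34, adjusted p = 0.0298), Laptm5 (slope -0.44, SE 0.12, adjusted p = 0.0299), Tyrobp (slope -0.59, SE 0.17, adjusted p = 0.0389), Ctsd (slope -0.44, SE 0.13, adjusted p = 0.0413) and Fcer1g (slope -0.51, SE 0.16, adjusted p = 0.0481). Acp5 was the member with a positive slope (slope 0.37, SE 0.41, adjusted p = 0.663). Trem2 (slope -0.58, SE 0.18, adjusted p = 0.0514) and Spp1 (slope -1.14, SE 0.36, adjusted p = 0.0520) missed the threshold. Of the 14 pan-microglia genes 4 passed, all negative, with a median of -0.42.

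**Figure D5:**
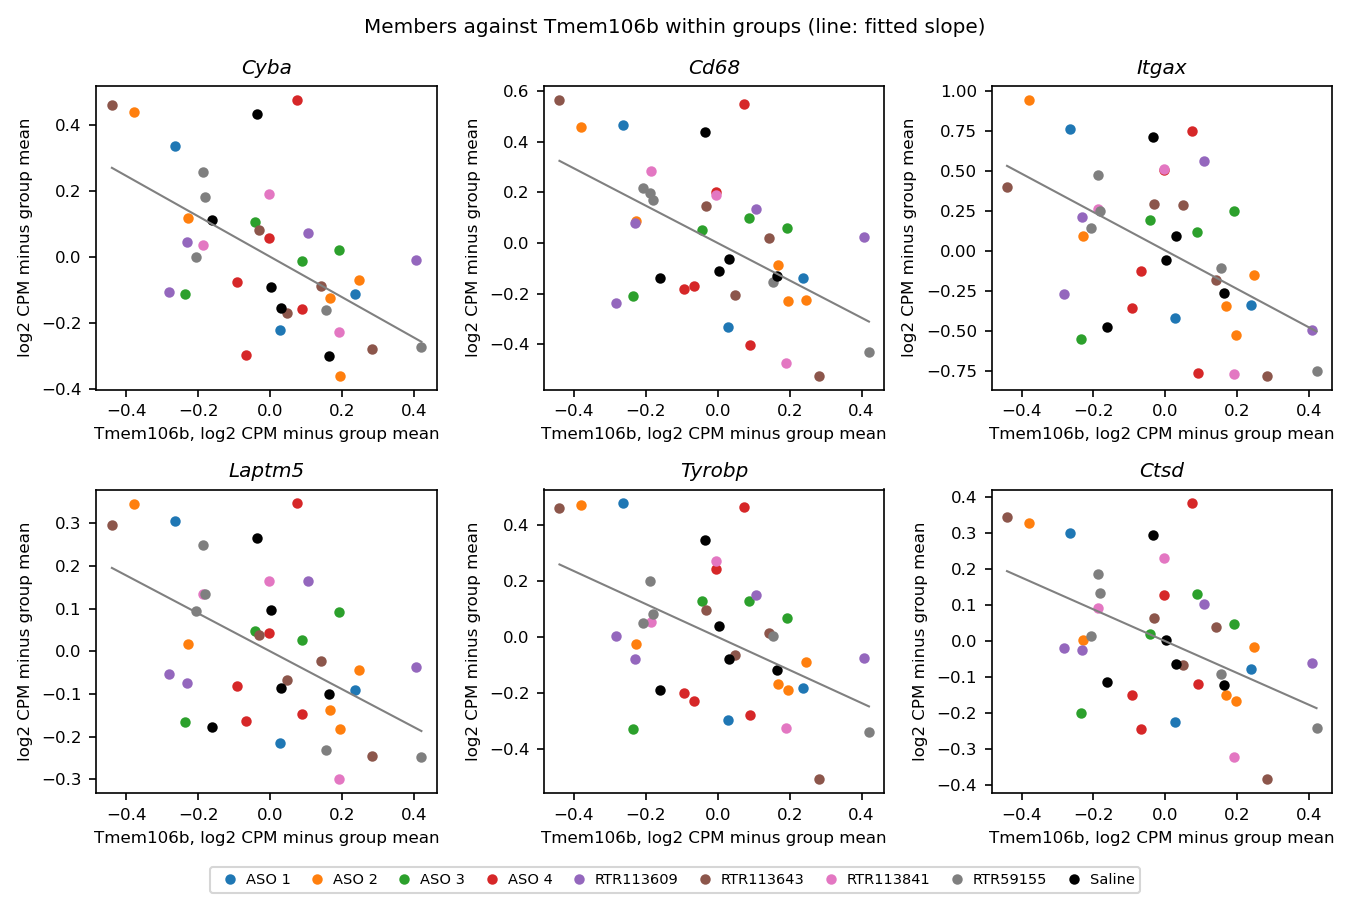
Level of Cyba, Cd68, Itgax, Laptm5, Tyrobp and Ctsd (vertical axes) against Tmem106b (horizontal axes) in the 39 libraries, each as log2 CPM minus the mean of its group, coloured by group with saline in black. The lines are the fitted slopes, from -0.44 for Ctsd and Laptm5 to -1.20 for Itgax, and points of the same group lie widely about them.

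The call on the Cyba slope was kept without each of the 39 libraries in turn. The count of 7 was 1 without ASO 1 replicate 1 or RTR59155 replicate 5. It was 2 without ASO 2 replicate 2, RTR113643 replicate 2 or 5, RTR113841 replicate 3 or RTR59155 replicate 2, and 4 without ASO 2 replicate 3 or 4 or RTR113609 replicate 3. It was 13 without ASO 4 replicate 5 or RTR113609 replicate 1 and 12 without ASO 3 replicate 4. For these left-out fits the share of all genes called is not given. With all libraries and no covariate, 21 members had an unadjusted p under 0.05 for the slope, beside 20.6% of all genes. For the fits that follow, the share of all genes at an unadjusted p under 0.05 is not given. With the regional levels added Cyba alone passed (-0.53, adjusted p = 0.04997; 2.13% of all genes called). With edgeR's test 0 passed without the Pmch libraries (0.116% of all genes called) and 0 with the pan-microglia level added (1.05%), while 16 and 3 had an unadjusted p under 0.05.

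Within groups, most members followed the mean level of the pan-microglia genes from library to library. The correlation of a member's log2 CPM with the mean of the 14 pan-microglia genes, both taken as differences from the group mean over the 39 libraries, had a median of 0.882 and exceeded 0.8 in 25 members. Values of one library share its depth and its tissue, so these are descriptions with no test. Ctsd (r = 0.955), Trem2 (0.945) and Tyrobp (0.945) followed it most closely. Fth1 (0.400) and Acp5 (0.233) followed it least, and Acp5 rests on few counts. Against the mean of the 15 homeostatic genes the median was 0.763. The spread of members within groups differed as widely: the SD of log2 CPM was 0.639 for Gpnmb, 0.617 for Cst7 and 0.464 for Itgax, and 0.0855 for Fth1 and 0.0857 for Axl.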

How the data were processed

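Polyadenylated RNA of 39 mouse brain libraries was sequenced, with a mean of 34.0 M ± 3.90 M counts per library (SD, n = 39). The deposited tables give raw read counts over exons and RPKM for 52636 genes, per the file headers, with the gene width as another deposited column. Reads were aligned with GSNAP to GRCm38, per the submitters' processing notes, and the version, counting tool, annotation release and strand setting were not given in the sources used here. Reads shared by near-identical genes (Lyz2, Fth1, the Fc receptors) or overlapping antisense genes may therefore be misassigned.

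Groups came from the treatment labels. The counts were filtered with filterByExpr to 19246 genes, scaled by TMM and fitted with 9 groups in edgeR 4.0.16 under R 4.3.3 (quasi-likelihood test, two-sided, Benjamini-Hochberg over all genes tested, threshold 0.05). The slope on Tmem106b was adjusted over 19245 genes. CPM are TMM-scaled, and log2 CPM has a prior count of 2. Alternatives were DESeq2 1.42.0, limma voom (limma 3.58.1) with quality weights, no count filter, median-of-ratios scaling, 2 groups only, covariates and left-out libraries. The steps were run on simulated counts in which each gene varies on its own. The members vary together, so that simulation does not cover them as a list. Low counts limit Acp5 and Ch25h most.

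The members and all lists were chosen with earlier results of these data known. Values were given in every library, or as lowest, median and highest over the treated libraries, for Trem2, Tyrobp, Apoe, Itgax, Cst7, Clec7a and Ctsd and for 12 more members with the smallest adjusted p against saline. From each other list up to 3 genes with the smallest adjusted p were named, and the further ones were named after their values were seen. Some genes of these lists are not reported here. Promoters are from RefSeq on GRCm38.p6, and gene positions and types from GENCODE on GRCm38. The labels carry no replicate numbers, and replicates were numbered in accession order.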

Additional observations from a re-analysis of the deposited data

Results flagged for a closer look

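Single libraries stood far from the rest of their group in 20 of the 147 sets of values examined, which were those of 19 members, of Tmem106b and of the mean of the 33 members in each of the 7 groups of 4 or 5 libraries, where chance alone gives about 1 in 20. Of these, 8 were the saline library replicate 2, which was high for Clec7a (9.72 CPM), Ctsd (532 CPM), Cd52 (7.005 CPM), Cybb (4.20 CPM), Slc15a3 (4.89 CPM), Gpnmb (38.7 CPM), Lgals3 (7.10 CPM) and Cd180 (7.40 CPM). Another 8 were ASO 2 replicate 2, high for Tyrobp (39.2 CPM), Cst7 (11.3 CPM), Clec7a (11.1 CPM), Cd52 (7.67 CPM), Ccl6 (6.14 CPM), Mpeg1 (92.5 CPM), Lgals3 (6.52 CPM) and Spp1 (71.0 CPM). ASO 3 replicate 4 was low for Trem2 (28.0 CPM) and Tyrobp (32.6 CPM), RTR113643 replicate 4 was high for Acp5 (2.42 CPM), and RTR59155 replicate 1 was high for Cybb (5.39 CPM). Members vary together, so the values of 1 library are not separate observations.

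Levels differed between libraries of different numbered ASOs, by the test of the difference itself, in 18 cases. Of all genes, 10.8% were called in ASO 1 minus ASO 2, 5.74% in ASO 2 minus ASO 3 and 1.85% in ASO 2 minus ASO 4. With the striatum and hypothalamus levels in the fit, 0 of the 18 were kept. In that fit the shares of all genes called in the same pairs were 0.0779%, 0.353% and 0.0260%. The part of the ASO in these differences was not tested. ASO 1 minus ASO 2 gave log2 differences of 0.48 for Csf1, 0.31 for Cd63, 1.14 for Itgax, 0.89 for Ccl6, 1.12 for Spp1, 0.36 for Cd9, 0.43 for Ctsd, 0.41 for Laptm5, 1.36 for Cst7 and 0.54 for Tyrobp. ASO 2 minus ASO 3 gave -0.52 for Ctsd, -0.30 for Cd63, -0.93 for Ccl6, -1.10 for Itgax, -1.12 for Clec7a, -0.92 for Lgals3 and -0.53 for Mpeg1. ASO 2 minus ASO 4 gave -0.31 for Csf1.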

How the results depend on the processing

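No call made with edgeR and no covariate changed direction when tested under an alternative, and the counts of members called moved. With DESeq2 they were 2 in ASO 1 (0.746% of all genes called), 9 in ASO 3 (3.35%) and 5 in RTR113643 (1.04%) against saline. DESeq2 gave 11 for the slope on Tmem106b (9.38%). With limma voom they were 11 in ASO 3 (4.85%), 4 in RTR113643 (0.972%) and 3 for the slope (5.58%). Limma voom called 5 in ASO 1 minus ASO 2 (10.4% of all genes called) and 15 in ASO 2 minus ASO 3 (12.3%). With edgeR these were 10 (10.8%) and 7 (5.74%). Without the filter on low counts they were 5 in ASO 1 (0.209% of all genes called), 14 in ASO 3 (1.33%), 1 in ASO 4 (0.0172%) and 11 in RTR113643 (0.395%). They were also 28 between the numbered ASOs (12 in ASO 2 minus ASO 3, where 3.15% of all genes were called) and 28 in the F test. With only the 2 groups compared they were 15 in ASO 3 (3.31% of all genes called), 8 in RTR113609 (6.37%) and 4 in RTR113643 (0.595%). With the striatum and hypothalamus levels they were 1 in ASO 3, 10 in RTR113609, 4 in RTR113643, 1 in RTR59155, 0 between the ASOs, 7 in the F test and 1 for the slope. Without the Pmch libraries they were 1 in ASO 3, 4 in RTR113643, 1 in RTR59155, 1 between the ASOs and 0 for the slope, and 0 for the slope with the regional levels as well, an alternative chosen after seeing the data. With the pan-microglia level they were 11 in RTR113609 (10 lower than saline and 1 higher), 0 in RTR113643, 1 in RTR59155 and 0 for the slope. Between the ASOs they were 6 in that fit, with 1 in ASO 1 minus ASO 2 (4.68% of all genes called) and 3 in ASO 2 minus ASO 3 (4.98%). With the red cell level they were 0 in ASO 3 and 11 between the ASOs. Of these, 10 were in ASO 1 minus ASO 2 (11.1% of all genes called) and 0 in ASO 2 minus ASO 3 (1.01%). Counts without a share of all genes beside them, here or above, do not show a change particular to the members. The cause was not tested.

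Leaving out 1 library at a time gave 0 to 5 members in ASO 1, 0 to 0 in ASO 2, 0 to 12 in ASO 3, 0 to 0 in ASO 4, 2 to 7 in RTR113609, 0 to 9 in RTR113643, 0 to 0 in RTR113841, 0 to 10 in RTR59155, 4 to 48 between the ASOs, 12 to 29 in the F test and 1 to 13 for the slope. These ranges are given without the share of all genes called, so they do not show a change particular to the members. Of the 18 calls against saline, all were kept with DESeq2, limma voom, median-of-ratios scaling and no filter, 17 with the 2 groups only, 13 with the red cell level, 9 with the regional levels, 9 without the Pmch libraries and 6 with the pan-microglia level. No paired analysis was possible because the labels carry no replicate numbers and replicates were numbered in accession order.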
